A study of Homo sapiens with 11 samples.

Results

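The 62 transcripts described here were nearly lost from RNA in one of 2 PCIF1 knockouts and kept in the other. They were chosen on the RNA libraries, from 66016 features with a count in any library, by 3 conditions. The mean wild-type level was at least 1 CPM (counts scaled to a library total of 1000000), the mean in one knockout was at most 20% of wild type, and the mean in the other was at least 60%. Of 44837 features that met the first condition, 20 were depleted in knockout 1 alone and 42 in knockout 2 alone. Since the RNA values picked these transcripts, they are given below as a description, and tests are given for ribosome footprints, which the choice did not use.

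All libraries came from HEK293T, an established human line of embryonic kidney origin that expresses a viral large T antigen. Wild-type cells and 2 numbered knockouts of the gene that the labels call CSAM were compared. Each genotype had 2 RNA libraries, and footprints came from 1 library of wild type and 2 of each knockout. The labels give no drug, treatment or time, and they do not say how the knockouts were made, whether each descends from a single cell, or whether replicates are separate cultures. The p-values below therefore measure the spread between these libraries, which may be technical.

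CSAM is now named PCIF1. The enzyme binds the phosphorylated tail of RNA polymerase II and methylates the N6 of an adenosine when it is the first transcribed base after the cap of a messenger RNA. Ribosome footprints are the stretches of messenger RNA that a translating ribosome shields from nuclease, so a transcript that is absent from a cell can give none. Alternative promoters, splicing and polyadenylation let a gene yield several overlapping transcripts, and such transcripts can share many of their reads.

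The files identify transcripts by UCSC-style identifiers without gene names, and 0 of the 62 identifiers matched the gene tables used here. Transcripts are therefore called by their line in the files, which hold the same rows in the same order, and no function or sequence is given for them. The transcripts of the targeted gene were not analysed here for the same reason. Transcripts depleted in the same knockout and at most 20 lines apart were counted as 1 locus, represented by the member with the highest wild-type RNA level. By this count the 20 transcripts formed 7 loci and the 42 formed 16, and 4 and 2 of these loci held a single transcript. Listed lengths, whose unit is not stated, had a median of 180.0 in the first list and 574.5 in the second, against 260 over the 44837 features. These medians count every member of a locus, and members of a locus can have equal lengths. The 7 representatives of the first list had listed lengths of 180, 305, 2008, 102, 387, 523 and 268.

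Library totals after merging of identical rows were 40346318 to 63551193 counts for RNA and 8387752 to 17437453 for footprints. A depleted RNA thus rested on few reads: the summed counts of the depleted knockout ranged from 0 to 104 in the first list and from 2 to 138 in the second. Replicate libraries of each group differed by more than sampling noise, with a chi-square per feature of 1.73 to 8.33, so none was counted as a repeat of another. Intervals below cover counting error only.

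Knockout 1 showed no intermediate cases. Of 53 features at or below 20% of wild type in knockout 1, 33 were at or below 20% in knockout 2 as well, 20 were at or above 60%, and 0 lay between. In knockout 2, 105 features were at or below 20%, of which the same 33 were low in both, 42 were kept in knockout 1 and 30 lay between 20% and 60%. The members' median level in the depleted knockout was 8.38% of wild type for knockout 1 (range 0% to 18.7%) and 10.3% for knockout 2 (0.878% to 19.998%). Over the 44837 features these medians were 97.4% and 94.8%. In the other knockout the members' medians were 142% (67.1% to 163%) and 90.1% (66.2% to 309%), and 18 of 20 and 20 of 42 exceeded wild type. How many of all features exceeded wild type was not computed. Their median was 94.8% in knockout 2 and 97.4% in knockout 1, so the 20 of 42 is not read as a rise in knockout 1. In the first list, lines 89104 to 89123 and 89604 to 89620 held 7 members each, which may share reads. The 18 of 20 is therefore not read as a rise in knockout 2 either.

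Near the limits, the members of the first list just inside 20% were at 18.7% and 17.2%, and the nearest features outside were at 21.1% and 21.5%. In the second list these values were 19.998% and 19.1% inside and 20.8% and 21.4% outside. At the 60% limit the members nearest to it were at 67.1% (first list) and 66.2% (second list), while the nearest features outside were at 11.1% and 58.6%. At the limit of 1 CPM they were at 1.10 and 1.02 CPM inside and at 0.822 and 0.991 CPM outside. The plot of RNA by library shows the representatives.

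**Figure D1:**
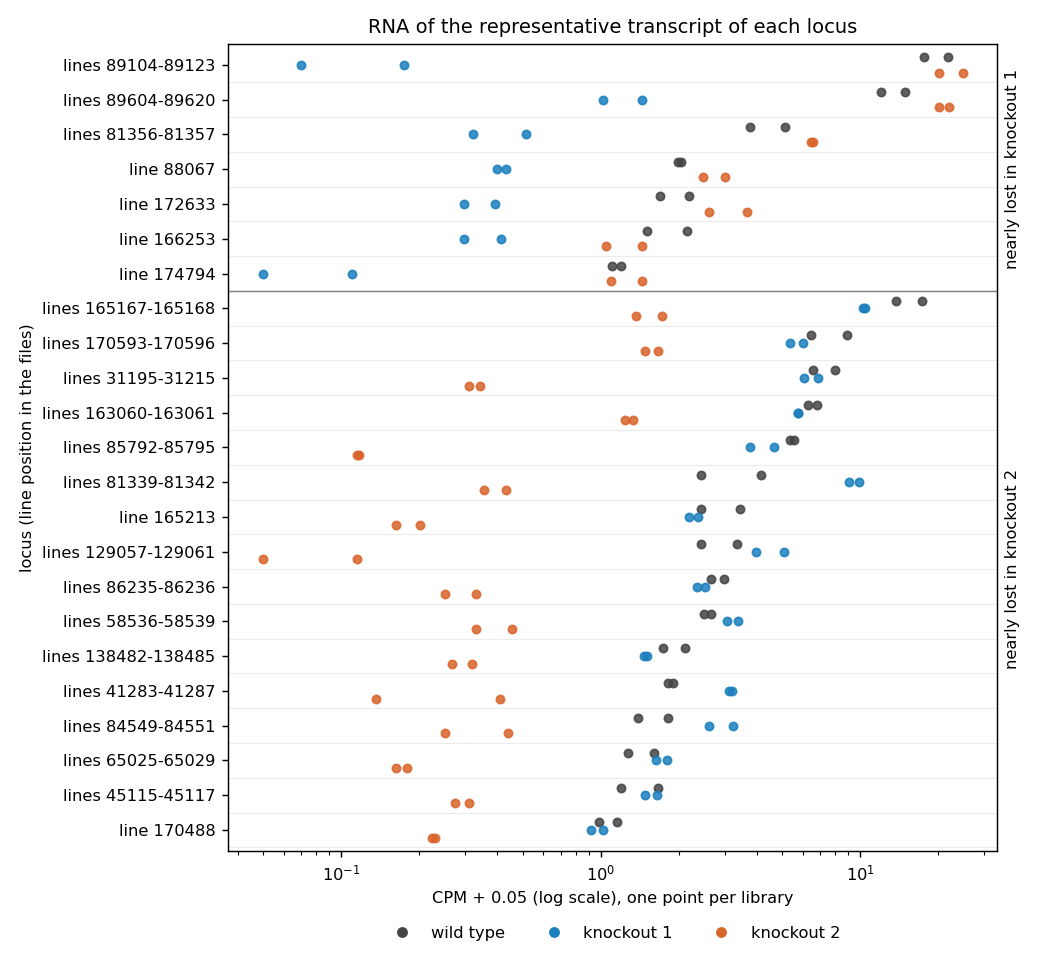
RNA level (CPM + 0.05, log scale) of the representative transcript of each of the 23 loci, with 1 point per library and 2 libraries per genotype. In each locus both libraries of the depleted knockout lie below all 4 other libraries, as the choice of members requires on average.

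Both footprint libraries of the depleted knockout lay below both of the other knockout for 20 of 20 and 42 of 42 members. This order was found for 24.0% of all 44410 features tested in footprints in the direction of knockout 1 and for 25.6% in that of knockout 2. They also lay below the wild-type library for 20 and 41 members, against 8.61% and 16.0% of all features. Median footprint levels in the depleted knockout were 28.1% of wild type in the first list and 9.003% in the second, against 107% and 106% over 44399 features with wild-type footprints. The wild-type value rests on 1 library and on 3 to 113 counts per member in the first list and 1 to 61 in the second.

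Footprints of the knockouts were compared by edgeR's quasi-likelihood test, adjusted over all 44410 features with at least 10 counts in at least 2 footprint libraries. Of the members, 18 of 20 and 31 of 42 were tested, and just 7 and 3 of them would have passed the count minimum through the depleted knockout alone. Passing through the knockout where a member is high favours a difference, so the counts that follow describe the members and support nothing further. In the direct comparison of the knockouts, 17 of the 18 were lower in knockout 1 and 29 of the 31 lower in knockout 2 (adjusted p under 0.05), in 4 and 11 loci. Over all features, 3.78% were lower in knockout 1 and 4.54% lower in knockout 2. Of the transcripts described one by one below, 12 were called in this comparison. Those at lines 89608, 81342 and 58536 met the count minimum in both libraries of the depleted knockout, and the other 9 met it only with libraries of the groups where they were higher. The adjusted p-values of those 9 are therefore given below as a description. With no count minimum all 62 members were tested and 54 were lower in the depleted knockout, where 2.74% of 63479 features were lower in knockout 1 and 3.07% lower in knockout 2. In that fit all 12 transcripts were called as well, with an adjusted p of at most 6.05e-05.

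Against the lone wild-type library, 11 of the 18 members, in 3 loci, were lower in knockout 1, where 3.64% of all features were. In knockout 2, 27 of the 31, in 10 loci, were lower, where 8.67% of all features were. In the other knockout, footprints were higher than in wild type for 9 of the 18, which lay in just 2 loci (7.14% of all features higher in knockout 2). For the second list they were higher for 5 of the 31, in 2 loci, and lower for 1 (2.40% of all features higher and 3.64% lower in knockout 1). Both comparisons with wild type assume that its single library varies like the knockout pairs. DESeq2, run without its own filters, called fewer members, 33 of 49 between the knockouts, 7 of 18 against wild type in knockout 1 and 11 of 31 in knockout 2. Of the calls between the knockouts described below, it did not make those at lines 172633, 165167, 170593 and 85795 (DESeq2 adjusted p = 0.128, 0.0656, 0.0973 and 0.252). Of the calls against wild type, it did not make those at lines 81356, 170593, 85795 and 86235 in the depleted knockout (0.444, 0.197, 0.263 and 0.102) and at lines 81356 and 165167 in the other (0.403 and 0.466). At line 89608 it made neither call against wild type, with the values given below. Over all features, the count for the direct comparison was 3696, and 1565, 1618 and 2196 without replicate 1 of knockout 1, replicate 1 of knockout 2 or replicate 2 of knockout 2. That for knockout 2 against wild type was 7021, and 4273 without replicate 1 of knockout 2.

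**Figure D2:**
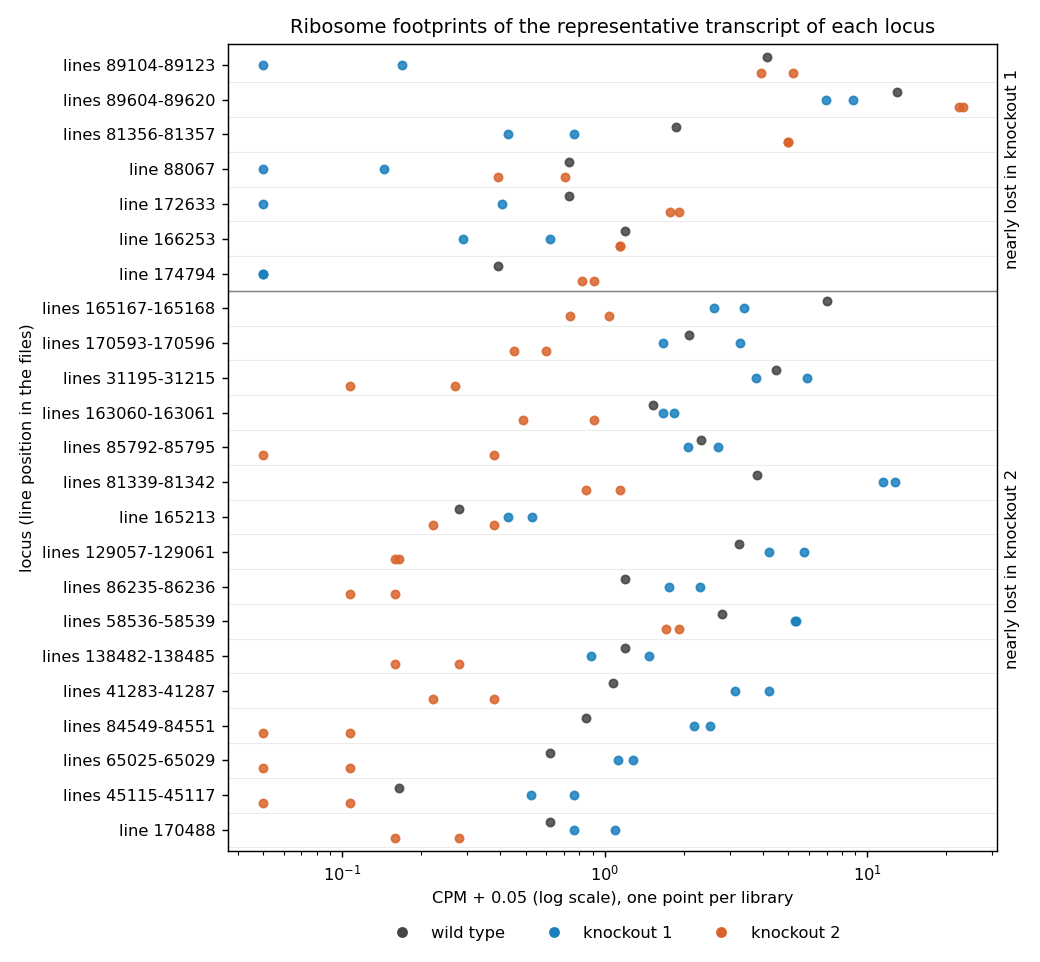
Footprint level (CPM + 0.05, log scale) of the same 23 representatives, with 1 point per library (1 wild-type library, 2 per knockout). The depleted knockout lies lowest in 22 loci, while at line 165213 its higher library lies above the wild-type point.

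The deepest loss in knockout 1 was at lines 89104 to 89123, where 7 of 7 features with at least 1 CPM in wild type were members. Its representative, uc065bgj.1 at line 89120 (listed length 180), had RNA levels of 17.6 and 21.7 CPM in the wild-type libraries, against 0.124 and 0.0202 in those of knockout 1 and 20.04 and 24.7 in those of knockout 2. Both libraries of knockout 1 were far below the other 4, and the 2 values of knockout 2 fell on either side of the higher wild-type library. Footprints of this transcript were at 4.11 CPM in wild type, against 0 and 0.119 in knockout 1 libraries and 3.90 and 5.15 in knockout 2 libraries. The depleted knockout held 1 footprint count in all, against 36 in wild type and 68 and 47 in knockout 2. Its pooled footprint level was 1.22% (exact binomial 95% interval 0.0307% to 6.94%) of that in knockout 2 (edgeR adjusted p = 1.15e-13, and 2.62e-10 against wild type). The transcript met the count minimum only with libraries of wild type and knockout 2, so both p-values are given as a description. Knockout 2 was not called different from wild type in footprints (log2 change 0.01 ± 0.32 (SE), adjusted p = 0.994).

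The other 6 members of this locus followed the representative. Over the 7, RNA in knockout 1 was 0% to 0.524% of wild type and footprints were 0% to 5.50%. RNA in knockout 2 was 93.7% to 119.9% of wild type. The member at line 89123 had 0 RNA counts in both libraries of knockout 1, so its RNA was at least 108-fold lower than in wild type (3 counts over the group taken as the limit). Its footprints were also at 0 in knockout 1, at least 11.5-fold lower than in wild type. The loss ended within 4 lines of the locus on either side: the next feature with at least 1 CPM, at line 89125, was at 113% of wild type in knockout 1, and the last one before, at line 89100, at 114%. All 18 such features within 20 lines on either side were at 86.8% to 176% in knockout 1.

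A second group of 7 transcripts depleted in knockout 1, at lines 89604 to 89620, kept a larger share of its footprints than of its RNA. Its representative (line 89608, listed length 305) had RNA at 11.99 and 14.8 CPM in the wild-type libraries, against 1.39 and 0.968 in those of knockout 1 and 19.99 and 21.98 in those of knockout 2. Knockout 1 was lowest and knockout 2 highest, with no overlap between the 3 genotypes. Footprints were at 12.9 CPM in wild type, against 8.75 and 6.91 in knockout 1 libraries and 22.3 and 23.02 in knockout 2 libraries. The order of the genotypes was the same as in RNA, but the distances were smaller. RNA of knockout 1 was 8.81% of wild type and its footprints 60.7%, from 92 and 58 counts against 113 in wild type. The footprint change of knockout 1 against knockout 2 was -1.52 ± 0.15 on the log2 scale (SE, edgeR adjusted p = 1.31e-13). Against wild type it was -0.80 ± 0.21 in knockout 1 (adjusted p = 0.00864) and 0.72 ± 0.18 in knockout 2 (adjusted p = 0.00253). The call in knockout 1 was lost without its replicate 2 (adjusted p = 0.0610), and DESeq2 called neither (adjusted p = 0.0781 and 0.106).

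Across the 7 members of this locus, RNA in knockout 1 was 7.77% to 9.86% of wild type and footprints were 55.1% to 85.6%. In knockout 2, RNA was 147% to 157% and footprints 174% to 271% of wild type. The members at lines 89608 and 89620 had equal counts in all 6 RNA libraries and near-equal footprints, so overlapping or near-identical transcripts cannot be told apart here. The 11 features with at least 1 CPM within 20 lines were at 93.2% to 166% in knockout 1.

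Lines 81339 to 81357 held 2 loci with opposite losses. At lines 81356 and 81357, 2 transcripts of equal listed length (2008) were depleted in knockout 1. RNA of the representative was at 5.07 and 3.72 CPM in the wild-type libraries, against 0.273 and 0.464 in those of knockout 1 and 6.55 and 6.41 in those of knockout 2. At lines 81339 and 81342, 14 lines before, a pair of transcripts was depleted in knockout 2. Its representative (line 81342, listed length 337) had RNA at 2.38 and 4.11 CPM in the wild-type libraries, against 9.86 and 9.04 in those of knockout 1 and 0.304 and 0.381 in those of knockout 2. In this pair of transcripts knockout 1 lay above wild type, at 291% on average. Each locus thus was lowest in the knockout in which its neighbour was highest.

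Footprints showed the same order at both loci. At line 81356 they were at 1.83 CPM in wild type, against 0.380 and 0.715 in knockout 1 libraries and 4.93 and 4.93 in knockout 2 libraries. The change of knockout 1 against knockout 2 was -3.20 ± 0.38 (SE, log2, edgeR adjusted p = 8.56e-11), and against wild type -1.86 ± 0.58 (adjusted p = 0.0357, or 0.189 without replicate 1 of knockout 1). Knockout 2 rose by 1.34 ± 0.38 against wild type (adjusted p = 0.00795). This transcript met the count minimum only with libraries of wild type and knockout 2, so its p-values are given as a description. At line 81342 footprints were at 3.77 CPM in wild type, against 11.4 and 12.8 in knockout 1 libraries and 0.803 and 1.10 in knockout 2 libraries. Here knockout 2 was lower than knockout 1 by -3.70 ± 0.27 (log2, adjusted p = 3.06e-20). Against wild type knockout 2 was lower (-2.13 ± 0.41, adjusted p = 5.06e-05) and knockout 1 higher (1.57 ± 0.28, adjusted p = 3.75e-05). The 8 features with at least 1 CPM in the 20 lines after line 81357 were at 83.4% to 119% of wild type in both knockouts.

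**Figure D3:**
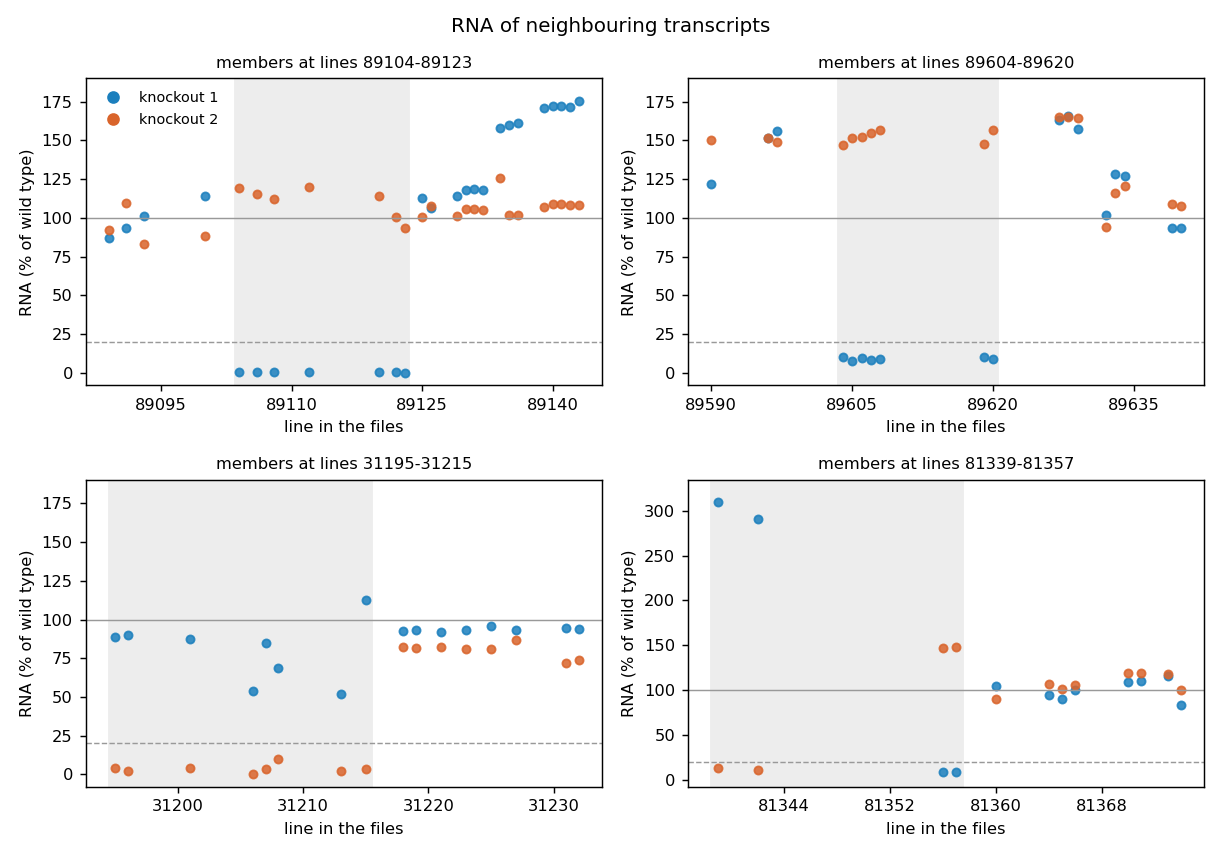
RNA of transcripts with at least 1 CPM in wild type, in percent of the wild-type mean, against their line in the files, around the 3 loci of 5 or more members and the 2 neighbouring loci with opposite losses. Grey marks the lines from the first to the last member, the solid line 100% and the dashed line 20%, and outside the grey areas every plotted value lies at or above 72.2%.

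The remaining 4 loci depleted in knockout 1 held 1 transcript each, at lower levels. At line 88067 (listed length 102), RNA was at 1.98 and 1.93 CPM in the wild-type libraries, against 0.347 and 0.383 in those of knockout 1 and 2.43 and 2.96 in those of knockout 2. At line 172633 (387) it was at 2.14 and 1.64 CPM in the wild-type libraries, against 0.248 and 0.343 in those of knockout 1 and 2.56 and 3.61 in those of knockout 2. Both transcripts were lowest in knockout 1 and highest in knockout 2, without overlap. At line 166253 (523), RNA was at 2.09 and 1.46 CPM in the wild-type libraries, against 0.248 and 0.363 in those of knockout 1 and 0.997 and 1.39 in those of knockout 2. That was the lowest level in the other knockout in this list, 67.1% of wild type, and both libraries of knockout 2 lay below both of wild type. At line 174794 (268), RNA was at 1.05 and 1.15 CPM in the wild-type libraries, against 0 and 0.0605 in those of knockout 1 and 1.04 and 1.39 in those of knockout 2, where knockout 2 overlapped with wild type. Knockout 1 held 3 RNA counts there, which is 3.04% (exact binomial 95% interval 0.619% to 9.09%) of wild type by pooled counts.

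Footprints of these 4 transcripts were sparse. At line 172633 they were at 0.685 CPM in wild type, against 0 and 0.358 in knockout 1 libraries and 1.72 and 1.86 in knockout 2 libraries. The 3 counts in knockout 1 amounted to 8.97% (exact binomial 95% interval 1.79% to 27.9%) of the pooled level in knockout 2. The transcript met the count minimum only through knockout 2, so its edgeR adjusted p of 1.32e-04 (0.0516 without replicate 1 of knockout 1, 1.02e-05 with no count minimum) is given as a description. At line 166253 footprints were at 1.14 CPM in wild type, against 0.570 and 0.238 in knockout 1 libraries and 1.09 and 1.10 in knockout 2 libraries. The difference between the knockouts did not pass there (log2 -1.36 ± 0.60 (SE), adjusted p = 0.152), nor did that of knockout 1 from wild type (adjusted p = 0.257). The transcripts at lines 88067 and 174794 missed the count minimum. Line 88067 had 1 footprint count in knockout 1 against 12 in knockout 2, or 11.7% (exact binomial 95% interval 0.274% to 79.1%). At line 174794, 0 counts in knockout 1 stood against 15 and 7 in knockout 2, at least 5.22-fold lower.

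In knockout 2 the largest group was that at lines 31195 to 31215, with 6 members. Its representative (line 31195, listed length 747) had RNA at 6.50 and 7.91 CPM in the wild-type libraries, against 6.79 and 6.03 in those of knockout 1 and 0.260 and 0.291 in those of knockout 2. Knockout 2 lay apart from the other 4 libraries, and knockout 1 overlapped with wild type. Footprints were at 4.45 CPM in wild type, against 3.71 and 5.84 in knockout 1 libraries and 0.0573 and 0.219 in knockout 2 libraries. Knockout 2 held 3 footprint counts, which is 2.43% (exact binomial 95% interval 0.491% to 7.33%) of the pooled level in knockout 1 (edgeR adjusted p = 1.92e-14, and 2.36e-11 against wild type). The representative met the count minimum only with libraries of wild type and knockout 1, so both p-values are given as a description. Over the 6 members, RNA in knockout 2 was 2.36% to 9.99% of wild type, and footprints were 0% to 6.002%. Another 2 features on these lines were no members, although they were at 0.542% and 2.14% of wild type in knockout 2, because knockout 1 was at 54.1% and 51.7%. The loss ended before line 31218, where knockout 2 was at 82.1%, and the 8 neighbouring features were at 72.2% to 86.8%.

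The most abundant transcript depleted in knockout 2 was uc060wjr.1 (line 165167, listed length 610). Its RNA was at 17.3 and 13.7 CPM in the wild-type libraries, against 10.2 and 10.4 in those of knockout 1 and 1.67 and 1.32 in those of knockout 2. Knockout 1 also lay below both wild-type libraries, at 66.2%. Footprints were at 6.96 CPM in wild type, against 2.57 and 3.34 in knockout 1 libraries and 0.688 and 0.987 in knockout 2 libraries. All differences passed edgeR's test, those from wild type against a single library: knockout 2 against knockout 1 by -1.85 ± 0.37 (SE, log2, edgeR adjusted p = 1.60e-04), knockout 2 against wild type by -3.20 ± 0.37 (adjusted p = 5.89e-11) and knockout 1 against wild type by -1.35 ± 0.31 (adjusted p = 0.00216). DESeq2 called the difference of knockout 2 from wild type (adjusted p = 9.78e-05), but neither that between the knockouts (adjusted p = 0.0656) nor that of knockout 1 from wild type (adjusted p = 0.466). Next in wild-type level was line 170593 (listed length 809), with RNA at 8.81 and 6.41 CPM in the wild-type libraries, against 5.30 and 5.99 in those of knockout 1 and 1.43 and 1.61 in those of knockout 2. Its footprints were at 2.05 CPM in wild type, against 1.62 and 3.22 in knockout 1 libraries and 0.401 and 0.548 in knockout 2 libraries. They were lower in knockout 2 than in knockout 1 (-2.33 ± 0.46, adjusted p = 1.43e-04) and than in wild type (-2.24 ± 0.58, adjusted p = 0.00341). At 19.998% of wild type in RNA, this transcript was the member closest to the 20% limit. Neither it nor that at line 165167 met the count minimum in both libraries of knockout 2, so the edgeR p-values of knockout 2 are given as a description.

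At 3 further loci knockout 2 held at most 3 footprint counts for the representative. The 4 members at lines 85792 to 85795 had a representative (line 85795, listed length 764) with RNA at 5.51 and 5.30 CPM in the wild-type libraries, against 3.72 and 4.60 in those of knockout 1 and 0.0650 and 0.0672 in those of knockout 2. Its footprints were at 2.28 CPM in wild type, against 2.66 and 2.03 in knockout 1 libraries and 0 and 0.329 in knockout 2 libraries. Knockout 1 lay below wild type in RNA and on both sides of it in footprints. The 3 footprint counts of knockout 2 were 4.75% (exact binomial 95% interval 0.943% to 14.8%) of the pooled level in knockout 1 (edgeR adjusted p = 1.71e-07). At lines 129057 to 129061, 4 members were depleted, and line 129061 (listed length 464) had RNA at 3.30 and 2.38 CPM in the wild-type libraries, against 3.92 and 5.04 in those of knockout 1 and 0.0650 and 0 in those of knockout 2. Footprints there were at 3.20 CPM in wild type, against 5.70 and 4.17 in knockout 1 libraries and 0.115 and 0.110 in knockout 2 libraries. Knockout 1 was above wild type in both assays, though its footprint difference from wild type did not pass the test (log2 0.54 ± 0.35 (SE), adjusted p = 0.406). Knockout 2 held 3 RNA counts (1.14% (exact binomial 95% interval 0.235% to 3.37%) of wild type) and 3 footprint counts, or 2.25% (exact binomial 95% interval 0.456% to 6.77%) of knockout 1 (adjusted p = 1.92e-15). At line 86235 (listed length 518), RNA was at 2.61 and 2.92 CPM in the wild-type libraries, against 2.31 and 2.46 in those of knockout 1 and 0.282 and 0.202 in those of knockout 2, and footprints at 1.14 CPM in wild type, against 1.71 and 2.27 in knockout 1 libraries and 0.0573 and 0.110 in knockout 2 libraries. Knockout 2 had 2 footprint counts there, or 3.85% (exact binomial 95% interval 0.449% to 14.9%) of knockout 1 (adjusted p = 1.11e-06). All 3 representatives met the count minimum only with libraries of the groups where they were higher, so these p-values are given as a description.

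Footprints were a higher percentage of wild type than RNA for 12 of the 16 representatives depleted in knockout 2 and for 5 of the 7 depleted in knockout 1. The choice of members by low RNA in that knockout favours this direction, so the counts are a description. Over all features, median footprints were 107% of wild type in knockout 1 and 106% in knockout 2, against 97.4% and 94.8% for RNA. At 3 loci of the second list, footprints of the representative in knockout 2 were above 40% of wild type. Line 58536 (listed length 251) had RNA at 2.61 and 2.45 CPM in the wild-type libraries, against 3.32 and 3.03 in those of knockout 1 and 0.282 and 0.403 in those of knockout 2. Its footprints were at 2.74 CPM in wild type, against 5.32 and 5.25 in knockout 1 libraries and 1.66 and 1.86 in knockout 2 libraries. RNA of knockout 2 was 13.5% of wild type, and its footprints were 64.4%. They were lower than in knockout 1 (-1.59 ± 0.27 (SE, log2), edgeR adjusted p = 9.04e-06), while the difference from wild type did not pass (-0.74 ± 0.40, adjusted p = 0.208). Line 163061 (listed length 634) had RNA at 6.22 and 6.78 CPM in the wild-type libraries, against 5.70 and 5.69 in those of knockout 1 and 1.19 and 1.28 in those of knockout 2, with footprints at 1.48 CPM in wild type, against 1.62 and 1.79 in knockout 1 libraries and 0.860 and 0.438 in knockout 2 libraries. Neither the footprint difference between the knockouts (-1.23 ± 0.45, adjusted p = 0.0758) nor that of knockout 2 from wild type (-1.14 ± 0.59, adjusted p = 0.187) passed. Line 165213 (listed length 636) had RNA at 3.38 and 2.38 CPM in the wild-type libraries, against 2.13 and 2.32 in those of knockout 1 and 0.152 and 0.112 in those of knockout 2. Its footprints, at 0.228 CPM in wild type, against 0.380 and 0.477 in knockout 1 libraries and 0.172 and 0.329 in knockout 2 libraries, rested on 2 to 4 counts per library and overlapped between knockout 2 and wild type. They missed the count minimum, and the interval of the ratio of the knockouts, 53.4% (exact binomial 95% interval 15.3% to 175%), includes equal levels.

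The last 6 loci, with 15 members, had wild-type RNA levels of 1.02 to 1.88 CPM at their representatives. RNA of the representatives in knockout 2 was 8.69% to 19.1% of wild type, and in knockout 1 76.5% to 185%. Footprints of knockout 2 were 3.59% to 29.7%. Mean levels of knockout 1 were above wild type in both assays for the representatives at lines 41283, 45116, 65025 and 84549. Mean RNA of knockout 1 was below wild type for those at lines 138482 and 170488. The locus at lines 41283 to 41287 was chosen for mention after the values were seen. RNA of the representative was at 1.86 and 1.77 CPM in the wild-type libraries, against 3.07 and 3.15 in those of knockout 1 and 0.0867 and 0.358 in those of knockout 2, and footprints were at 1.03 CPM in wild type, against 4.18 and 3.10 in knockout 1 libraries and 0.172 and 0.329 in knockout 2 libraries. The rise of footprints in knockout 1 against wild type was 1.73 ± 0.49 (SE, log2, edgeR adjusted p = 0.0168), and the change of knockout 2 was -2.21 ± 0.77 (adjusted p = 0.0352). Since the transcript met the count minimum only through knockout 1, these p-values are given as a description. The wild-type value rests on 9 counts.

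The plot of RNA against footprints sets what remained of both in the depleted knockout side by side. Of the 20 members of the first list, footprints were at or below 20% of wild type for 9, between 20% and 60% for 6, and at or above 60% for 5. In the second list these numbers were 25, 14 and 3. Members of a locus may share reads, and the members at or above 60% come from few places in the files. In the first list all 5 lay at lines 89604 to 89620, and in the second list they were the 2 members at lines 58536 to 58539 and that at line 165213. No test is given for the gap between RNA and footprints, since the RNA values served to choose the members.

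**Figure D4:**
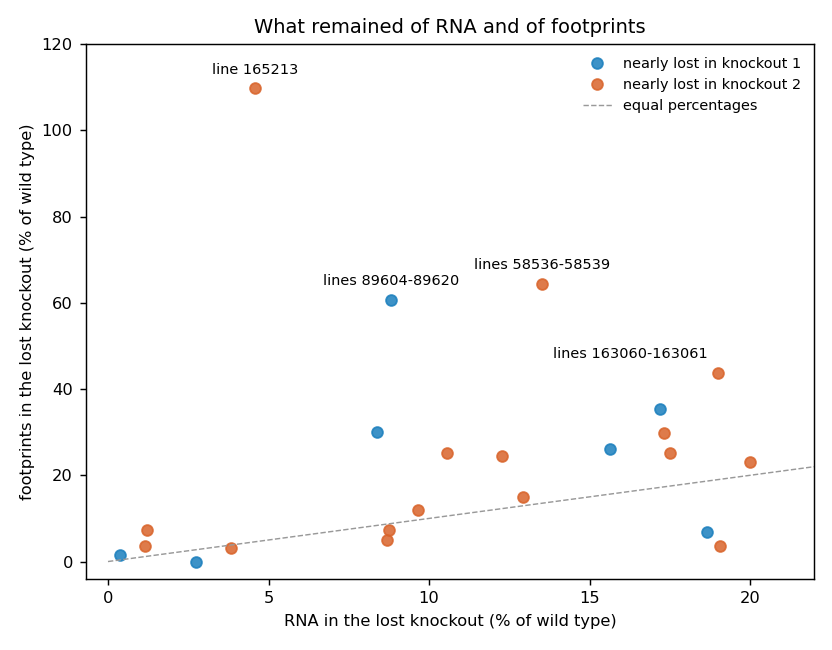
Footprints against RNA in the depleted knockout, each in percent of wild type, for the 23 representatives. Most points lie near or moderately above the dashed line of equal percentages, and the 4 named loci keep over 40% of wild-type footprints with under 20% of RNA.

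Neighbouring transcripts had median RNA levels of 80% to 120% of wild type in the depleted knockout around 10 of 21 loci with such neighbours. Features with at least 1 CPM within 20 lines of a locus depleted in knockout 1 had median RNA levels in that knockout of 75.1% to 135% of wild type in the 7 loci. Around loci depleted in knockout 2, such neighbours existed for 14 of 16 loci, and their medians ranged from 32.0% to 147%. The 147% was at lines 81339 to 81342, where the neighbours included the members at lines 81356 and 81357. Those were chosen for being kept in knockout 2, and the only other neighbour there was at 90.4%. At 5 of these 14 the median was under 50%: 32.0% at lines 163060 and 163061, 38.6% at lines 86235 and 86236, 39.0% at line 170488, 46.4% at lines 85792 to 85795 and 48.1% at lines 170593 to 170596. Some neighbours were lower in knockout 2 than the members. Lines 163043 to 163046 were at 0.359% to 0.370% there and at 45.2% to 46.6% in knockout 1. Line 170505 was at 0% and 24.2%. The highest neighbours in knockout 2 were at 65.0% around lines 163060 and 163061 and 49.2% around line 170488. Around lines 31195 to 31215 and 58536 to 58539 the medians were 81.2% and 101%. These values were not tested.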

How the data were processed

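RNA and ribosome footprints of HEK293T cells were read from 11 deposited tables, 1 per library. Per the file contents, they hold whole-number counts per transcript as deposited, not normalised, in 182398 rows, each with an identifier and a listed length. TopHat2 2.0.9, Bowtie2 2.1.0 and CASAVA 1.8 are listed in the submitters' processing notes, without their roles. How the deposited counts were made, whether strand was used and how shared reads were handled is not given in the sources used here. Per the labels' protocols, footprints were made with RNase I and RNA libraries with TruSeq. The listed length, in the deposited files without a unit, is another score per row and was used only as a description.

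Rows with equal counts in all 11 libraries were merged (82937 rows with a count to 66016 features), and CPM was taken over merged rows. Footprints were tested with edgeR 4.0.16 (R 4.3.3, quasi-likelihood, robust, TMM, two-sided, Benjamini-Hochberg, threshold 0.05) in 1 fit over the 5 footprint libraries, and a standard error is the size of the log2 change over the square root of F. DESeq2 1.42.0 served as an alternative. For each list the representatives of the 10 loci with the highest wild-type level were described in full, and loci of 5 or more members by range. The members and lists were chosen with earlier results of these data known. Ratios of few counts carry exact binomial intervals of 95%, and 3 counts set the limit for a group at 0.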

Additional observations from a re-analysis of the deposited data

Results flagged for a closer look

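Of the 17 representatives described in full, 14 were tested in footprints, and the changes of the 2 knockouts against wild type differed at 12 by the direct edgeR test of the knockouts. Over all features, 3.78% were called lower in knockout 1 and 4.54% lower in knockout 2. Since 9 of the 12 met the count minimum only with libraries of the groups where they were higher, this count is a description. DESeq2 without its own filters did not call 4 of the 12. By pooled counts, footprints in knockout 1 were 1.22% of those in knockout 2 at lines 89104 to 89123, 35.2% at lines 89604 to 89620, 10.7% at lines 81356 to 81357 and 8.97% at line 172633. Footprints in knockout 2 were 27.2% of those in knockout 1 at lines 165167 to 165168, 19.4% at lines 170593 to 170596, 2.43% at lines 31195 to 31215 and 4.75% at lines 85792 to 85795. They were 7.53% at lines 81339 to 81342, 2.25% at lines 129057 to 129061, 3.85% at lines 86235 to 86236 and 32.7% at lines 58536 to 58539.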

How the results depend on the processing

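The number of members depended on the limits of the rule. At most 10% in the depleted knockout left 38 members (21 of them in the list of knockout 2) in 11 loci, and at most 30% gave 106 (34 and 72) in 39 loci. At least 80% in the other knockout left 48 members (19 and 29) in 17 loci, and at least 40% gave 80 (20 and 60) in 29 loci. A wild-type minimum of 0.5 CPM gave 100 members (31 and 69) in 36 loci, and one of 5 CPM gave 20 (9 and 11) in 7 loci. Without merging, 42 rows were depleted in knockout 1. Leaving out 1 RNA library at a time gave 58 to 66 members, 19 to 23 in the list of knockout 1 and 38 to 43 in that of knockout 2, in 22 to 25 loci. TMM and DESeq2 scaling each gave 57 members, all of them among the 62. Joining members at most 5 or 50 lines apart gave 27 and 22 loci.

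Leaving out 1 knockout footprint library at a time, 37 to 44 members were lower in the depleted knockout than in the other, 9 to 11 lower in knockout 1 than in wild type and 19 to 26 lower in knockout 2 than in wild type. DESeq2 with its own filters gave an adjusted p to 5 members between the knockouts, 2 in knockout 1 and 0 in knockout 2, and called 5, 0 and 0, with 46, 11 and 27 at an unadjusted p under 0.05. Without those filters, chosen after seeing the data, it called 33, 7 and 11, with the same unadjusted counts. Over all features DESeq2 called 746, 944 and 1827 with its filters and 706, 702 and 1527 without, against 3696, 2684 and 7021 by edgeR. With the replicate block, on the 4 knockout libraries, 45 members and 3747 features were called between the knockouts, and 45 and 3739 without it. The deviations of same-numbered knockout libraries did not correlate across features (r = -0.0019). Whether these libraries shared more than a number was not tested otherwise. Of 42 footprint comparisons of single representatives, 26 were called. Over these alternatives, 217 of 234 values of called comparisons kept the call, 17 lost it and 0 reversed, and 12 of the 17 losses were among the 26 calls under DESeq2 without its own filters. None of 128 values of comparisons not called became a call. The depth limits the footprints of most members: in the depleted knockout 35 of 62 held at most 3 counts. Nothing was recomputed without the wild-type footprint library in the comparisons with wild type, since it is the only one.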
